A study of Mus musculus with 10 samples.

Results

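The 10 genes described here encode muscle proteins that sit at the points where force passes through the cardiac sarcomere, and they were taken from the count table by gene symbol: Ankrd1, Ankrd2, Ankrd23, Csrp3, Fhl1, Fhl2, Xirp1, Xirp2, Flnc and Synpo2l. All 10 were present, each once, among 20692 genes. Polyadenylated RNA of the heart (the labels name whole-heart tissue, and the extraction protocol the ventricular apex) was sequenced from wild-type FVB/NJ mice, an inbred strain, labelled female and 9 weeks old. There were 5 sham libraries and 5 libraries of animals whose transverse aorta had been constricted 1 week earlier (TAC), an operation that makes the left ventricle pump against a narrowed aortic arch. The question is which cardiac transcripts differ after that week, and no genotype or drug differs between the groups. The sham titles do not name an operation, and that group comes from the series' design text.

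The ankyrin repeat proteins Ankrd1, Ankrd2 and Ankrd23 bind the elastic I-band part of titin, the giant spring of the sarcomere, and also enter the nucleus. The LIM domain proteins Csrp3 (muscle LIM protein), Fhl1 and Fhl2 are zinc-binding adaptors that dock at the Z-disc or on titin and link the sarcomere to signalling. The Xin proteins Xirp1 and Xirp2 bind actin at the intercalated disc, filamin C (Flnc) cross-links actin at the Z-disc and is replaced when mechanical strain unfolds it, and Synpo2l is an actin-associated Z-disc protein. Several of these genes are known to respond to load in heart muscle.

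Table values are read counts. CPM below means counts per 1000000, with library sizes scaled by TMM factors. Means are given ± SD over 5 libraries, and a log2 change is the fitted log2 fold change of TAC over sham with its standard error (SE). Adjusted p-values come from the quasi-likelihood test of edgeR and a Benjamini-Hochberg adjustment over 12001 tested genes, and a gene is said to rise or fall when that value is under 0.05. Library totals ranged from 7410967 to 10126574 counts. The library labelled TAC replicate 1 went against its female label, with 14 counts of Xist where the others had 1042 to 1561 and with 155 counts of the Y-linked Ddx3y where the others had 0, so values without it are given where they bear on a result. Cardiomyocyte markers were present in every library. The 10 genes of that list summed to 85964 to 101899 CPM in sham and 59100.0 to 82709 CPM in TAC. The lowest TAC sum was that of the library labelled TAC replicate 1, and the next lowest was 70916.5 CPM. Myh6 was the largest term, at 36607 to 48101 CPM in sham and 20519 to 38314 CPM in TAC. In TAC 7 of the 10 fell and 1, Nppa, rose (log2 change 2.48). Actc1 and Mybpc3 did not pass (log2 changes -0.12 and -0.06, edgeR adjusted p = 0.407 and 0.554). Over all tested genes 17.0% were called lower and 18.8% higher. The markers did not all move alike, and in bulk tissue fewer cells of a type and less RNA per cell cannot be told apart.

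Promoter sequences were available for 9 of the 10 genes, at 15 start sites, from RefSeq on GRCm38.p6, each running from 250 bases before to 50 bases after the start. Those printed belong to the 3 genes with the largest rises among the tested members and to the pair Fhl1 and Fhl2, which moved apart. Synpo2l, Fhl1 and Fhl2 each had another start that is not printed. Those of Synpo2l (chr14:20664525-20664824) and Fhl1 (chrX:56786277-56786576) held no match to the motifs below, and that of Fhl2 held a CArG box. Capitals mark matches, on either strand, to an MCAT element (CATTCC, or GGAATG on the other strand), a CArG box or a MEF2 site, the binding motifs of TEAD factors, of serum response factor and of MEF2 factors. No match overlapped another.
Ankrd1, chr19:36119795-36120094, minus strand: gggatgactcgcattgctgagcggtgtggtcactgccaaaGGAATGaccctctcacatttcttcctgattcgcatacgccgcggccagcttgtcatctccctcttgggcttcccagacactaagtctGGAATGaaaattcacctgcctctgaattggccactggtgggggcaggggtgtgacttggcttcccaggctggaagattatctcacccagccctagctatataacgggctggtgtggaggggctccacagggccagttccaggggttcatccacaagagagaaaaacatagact
Synpo2l, chr14:20668305-20668604, minus strand: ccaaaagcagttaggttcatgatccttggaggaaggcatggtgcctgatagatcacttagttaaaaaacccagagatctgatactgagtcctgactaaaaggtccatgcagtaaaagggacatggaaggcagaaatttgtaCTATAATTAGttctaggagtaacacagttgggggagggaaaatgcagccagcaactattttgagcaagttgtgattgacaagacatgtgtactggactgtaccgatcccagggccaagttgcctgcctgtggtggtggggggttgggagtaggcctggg
Xirp2, chr2:67445752-67446051, plus strand: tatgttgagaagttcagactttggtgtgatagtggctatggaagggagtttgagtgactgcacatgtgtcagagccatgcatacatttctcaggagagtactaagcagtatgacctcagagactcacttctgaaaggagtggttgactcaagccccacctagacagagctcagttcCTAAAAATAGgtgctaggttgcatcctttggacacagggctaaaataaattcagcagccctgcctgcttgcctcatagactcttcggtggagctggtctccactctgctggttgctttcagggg
Fhl1, chrX:56779433-56779732, plus strand: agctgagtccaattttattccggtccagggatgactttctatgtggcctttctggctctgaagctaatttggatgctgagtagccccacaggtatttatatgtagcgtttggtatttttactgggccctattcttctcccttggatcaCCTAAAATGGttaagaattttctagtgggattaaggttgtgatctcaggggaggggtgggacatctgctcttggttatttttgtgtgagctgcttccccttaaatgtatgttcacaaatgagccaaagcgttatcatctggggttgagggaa
Fhl2, chr1:43196712-43197011, minus strand: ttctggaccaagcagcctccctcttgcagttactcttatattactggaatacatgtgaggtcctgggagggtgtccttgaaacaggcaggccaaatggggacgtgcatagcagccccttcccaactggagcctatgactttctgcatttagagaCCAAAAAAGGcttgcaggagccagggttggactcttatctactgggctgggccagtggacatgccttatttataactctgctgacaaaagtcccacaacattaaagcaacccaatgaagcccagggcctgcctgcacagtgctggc
The Ankrd1 promoter held 2 MCAT elements, with first bases at -210 and -123 from the start. An MCAT element was found at 5 of the 15 starts, those of Ankrd1, Ankrd23 and Flnc (the 2 Flnc windows overlap and hold the same element), against 14.7% of the 32851 promoters in the RefSeq table. A CArG box was found at 3 starts, 1 of Fhl1 and 2 of Fhl2, against 1.63% of all promoters. A MEF2 site was found at 2 starts, those of Xirp2 and Synpo2l printed here, against 0.557%. These are matches of letters only, and the motifs were chosen after the values below were known.

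Of the 10 genes, 9 had enough counts to be tested, and 7 of these rose, 1 fell and 1 did not pass. Among all tested genes, 18.8% were called higher, 17.0% lower and 35.8% in either direction. The members were chosen with earlier results of these data known, so their count only describes them. Ankrd1 rose most, followed by Synpo2l, Xirp2, Fhl1, Ankrd23, Flnc and Xirp1, and the fall was that of Fhl2. The median log2 change of the 9 genes was 0.70, beside 0.00 over all tested genes. In 5 genes all TAC libraries lay on one side of all sham libraries, above in Ankrd1, Ankrd23, Xirp2 and Synpo2l (12.2% of all genes) and below in Fhl2 (11.6%, or 23.7% for either side). Together the 10 genes gave 0.748% ± 0.063 of all counts in sham and 1.33% ± 0.25 in TAC. Leaving out the library labelled TAC replicate 1 gave 6 members higher and 1 lower. Scaling by library totals moved the median over all genes to 0.11 and left 7 members called higher and 1 lower, while the share of all calls that were higher went from 52.5% to 73.8%. The alignment tools listed for the groups differ, and that difference cannot be told apart from the operation.

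**Figure D1:**
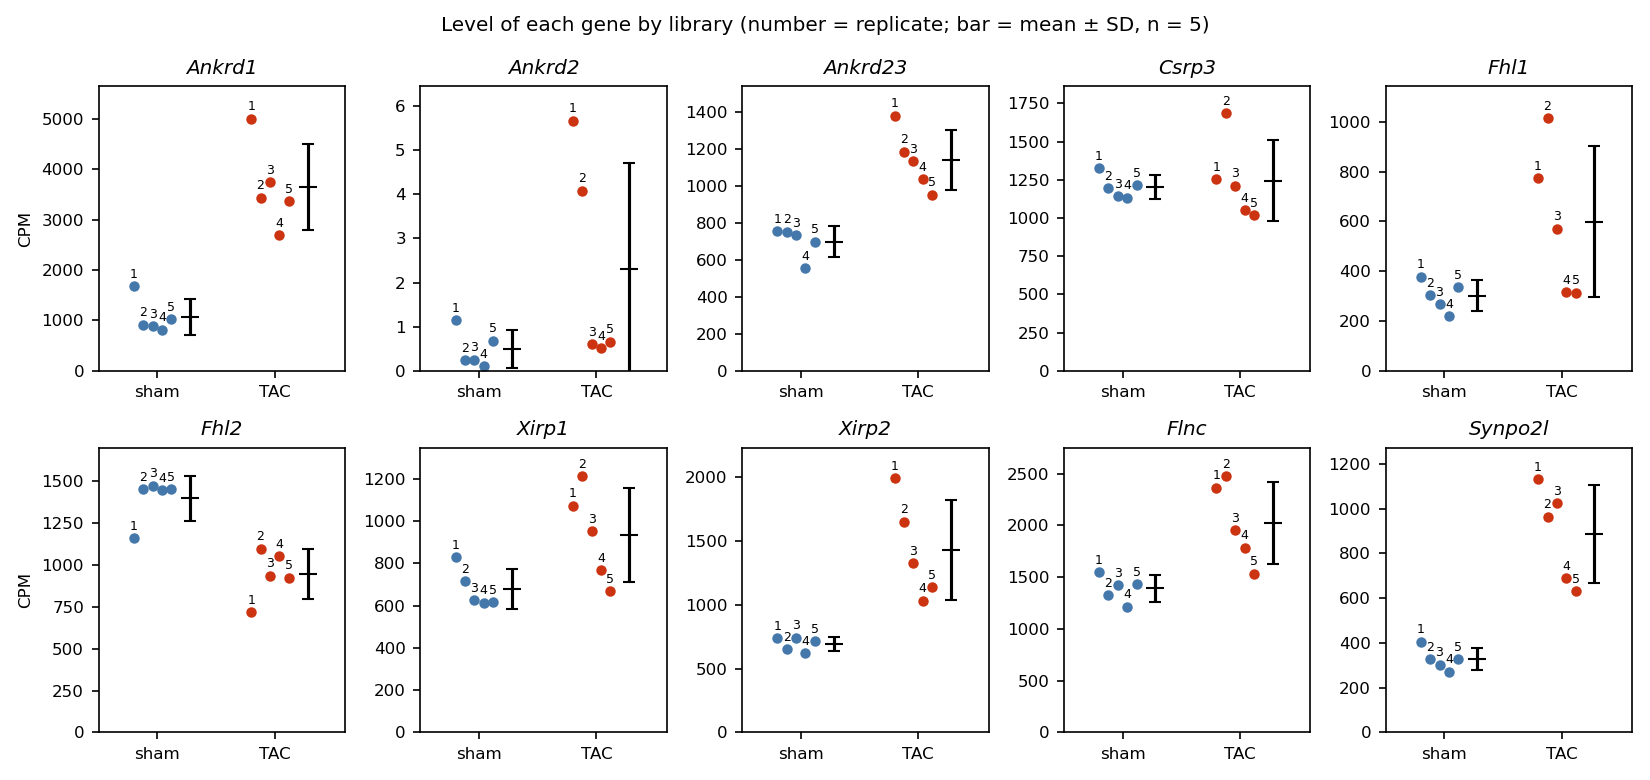
Level of each gene in CPM (vertical axes, each from 0) in the 5 sham and 5 TAC libraries, each point labelled with its replicate number, with the mean ± SD beside it (the Ankrd2 bar is cut at 0). The TAC points of Ankrd1, Ankrd23, Xirp2 and Synpo2l all lie above the sham points, those of Fhl2 all lie below, and those of Csrp3 spread around them.

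Ankrd1 (ENSMUSG00000024803, GRCm38 chr19:36111961-36120099, protein coding, 8 merged exons), the cardiac ankyrin repeat protein, gave 1683, 916, 893, 818 and 1024 CPM in sham replicates 1 to 5. In TAC replicates 1 to 5 it gave 5001, 3435, 3739, 2689.8 and 3364 CPM. The lowest TAC library thus stood above the highest sham library, and within sham, replicate 1 stood apart at a level not reached by the other 4. The mean went from 1067 ± 352 to 3646 ± 849 CPM (log2 change 1.77 ± 0.20, edgeR adjusted p = 5.88e-05), a 3.42-fold rise, and only 112 of the 12001 tested genes had a larger log2 change. Ankrd1 alone took up 0.102% of all counts in sham and 0.379% in TAC. Its log2 change was 1.63 without the library labelled TAC replicate 1 and 1.996 without sham replicate 1, the lowest and highest of all settings run.

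Ankrd23 (ENSMUSG00000067653, chr1:36530188-36536883, protein coding), which shares the titin-binding ankyrin fold, gave 757, 753, 736, 556 and 699 CPM in sham. Its TAC values were 1382, 1186, 1136, 1039 and 953 CPM, all above every sham library. The rise was 1.63-fold (log2 change 0.70 ± 0.11, edgeR adjusted p = 0.000321), and the log2 change was 0.62 without the library labelled TAC replicate 1. In the GENCODE M21 annotation a second gene model, Gm42417, covers 78.2% of its exon bases on the same strand. That model has no row in the count table, so how its reads were assigned is not given in the sources used here.

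Ankrd2 (ENSMUSG00000025172, chr19:42036000-42045110, protein coding), the ankyrin repeat member best known from slow skeletal muscle, was close to the detection limit. Sham libraries held 11, 2, 2, 1 and 6 counts and TAC libraries 49, 30, 5, 5 and 6. TAC replicates 1 and 2 therefore stood apart, at 5.66 and 4.08 CPM, while the other TAC libraries, at 0.522 to 0.659 CPM, lay within the sham range of 0.114 to 1.15 CPM. It did not pass the filter on low counts. Without that filter it had a log2 change of 2.11 ± 0.74 (edgeR adjusted p = 0.0459), a call that ended on leaving out TAC replicate 1 (adjusted p = 0.169), TAC replicate 2 (0.105) or any of sham replicates 2 to 5 (0.0708 to 0.104). The 9 skeletal muscle markers, Myh1, Myh2, Myh4, Tnni2, Tnnt3, Actn3, Pvalb, Mylpf and Atp2a1, summed to 3.35 to 4.63 CPM in sham and 2.54 to 3.97 CPM in TAC. In TAC replicates 1 and 2 their sums were 2.54 and 3.40 CPM, inside the range of the other libraries or below it, and 6 of the 9 were under 1 CPM in every library. These 9 are genes of fast fibres, so their sums cannot show whether slow skeletal muscle was present.

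Among the LIM genes the 3 members went 3 ways. Fhl1 rose, Fhl2 fell and Csrp3 did not pass. Fhl1 (ENSMUSG00000023092, chrX:56731787-56793346, protein coding), an X-linked adaptor that binds titin and is mutated in human myopathies, gave 379, 305, 268, 219.7 and 337 CPM in sham. Its TAC values of 775, 1016, 571, 315 and 314 CPM fell into a high set, replicates 1 to 3, above every sham library, and a low set, replicates 4 and 5, inside the sham range. The largest TAC value was 3.23 times the smallest, the widest spread of any tested member. The mean rose 1.98-fold (log2 change 0.99 ± 0.29, edgeR adjusted p = 0.0174). Without TAC replicate 2 the log2 change was 0.71 (edgeR adjusted p = 0.045) and without the library labelled TAC replicate 1 it was 0.87 (edgeR adjusted p = 0.0371).

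Fhl2 (ENSMUSG00000008136, chr1:43123074-43196984, protein coding), the most heart-enriched member of its family, which docks on titin and can restrain hypertrophic signalling, was the member that fell. Sham libraries gave 1160.5, 1454, 1474, 1449 and 1452 CPM, with replicate 1 below the other 4. TAC libraries gave 717, 1097, 937, 1052 and 925 CPM, and the highest of these lay below the lowest sham library. TAC was at 0.677 of the sham level (log2 change -0.56 ± 0.11, edgeR adjusted p = 0.00136). Without the library labelled TAC replicate 1, which had the lowest value of all, the log2 change was -0.48.

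Csrp3 (ENSMUSG00000030470, chr7:48830398-48848033, protein coding), muscle LIM protein, whose loss causes dilated cardiomyopathy in mice, averaged 1204 ± 77.4 CPM over sham libraries and 1244 ± 266 CPM over TAC libraries. Its log2 change was 0.05 ± 0.12 (edgeR adjusted p = 0.785), with a 95% interval of -0.22 to 0.32 from the SE and 8 residual degrees of freedom. The TAC values were 1254, 1685, 1212, 1053 and 1017 CPM. Replicate 2 lay above the highest sham library, at 1327 CPM, and replicates 4 and 5 lay below the lowest, at 1133 CPM. Without TAC replicate 2 the sign turned, to a log2 change of -0.09 (edgeR adjusted p = 0.403).

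Both Xin genes rose, Xirp2 by more. Xirp2 (ENSMUSG00000027022, chr2:67446002-67526614, protein coding, 9 merged exons), known as myomaxin and induced by Mef2 and angiotensin signalling, gave 741, 654, 742, 622 and 715 CPM in sham. The sham spread was narrow, and all TAC values, 1993, 1651, 1326, 1033 and 1140.2 CPM, lay above it. The rise was 2.06-fold (log2 change 1.04 ± 0.15, edgeR adjusted p = 0.000257) and the log2 change was 0.89 without the library labelled TAC replicate 1. An antisense gene model overlaps 1.40% of its exon bases, and these libraries do not keep strand.

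Xirp1 (ENSMUSG00000079243, chr9:120013755-120023598, protein coding, 3 merged exons), Xin itself, gave 830.0, 715, 624, 614 and 617 CPM in sham. The TAC values were 1072, 1212, 952, 768 and 667 CPM, of which replicates 1 to 3 lay above every sham library and replicates 4 and 5 within the sham range. The rise was 1.37-fold (log2 change 0.46 ± 0.15, edgeR adjusted p = 0.0258). This call was lost on leaving out any one of sham replicates 3, 4 and 5 or TAC replicates 1, 2 and 3, where the log2 change was 0.34 to 0.45 and the edgeR adjusted p 0.0517 to 0.0681.

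Of the remaining actin-binding genes, Flnc (ENSMUSG00000068699, chr6:29433256-29461883, protein coding, 48 merged exons) gave 1551, 1329.5, 1426, 1215 and 1436 CPM in sham. Its TAC values were 2365, 2478, 1952, 1786 and 1533 CPM. In 4 TAC libraries it was above every sham library, and replicate 5 lay just under the highest sham value. The rise was 1.45-fold (log2 change 0.54 ± 0.12, edgeR adjusted p = 0.00369), and the log2 change was 0.48 without the library labelled TAC replicate 1. Synpo2l (ENSMUSG00000039376, chr14:20658946-20668354, protein coding, 5 merged exons), which binds alpha-actinin at the Z-disc, went from 406, 329, 302, 272 and 328 CPM in sham to 1133, 965, 1025, 688 and 631 CPM in TAC. The lowest TAC value was well above the highest sham value. The rise was 2.71-fold (log2 change 1.44 ± 0.16, edgeR adjusted p = 5.10e-05), and 176 genes had a larger log2 change. Without the library labelled TAC replicate 1 the log2 change of Synpo2l was 1.34.

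**Figure D2:**
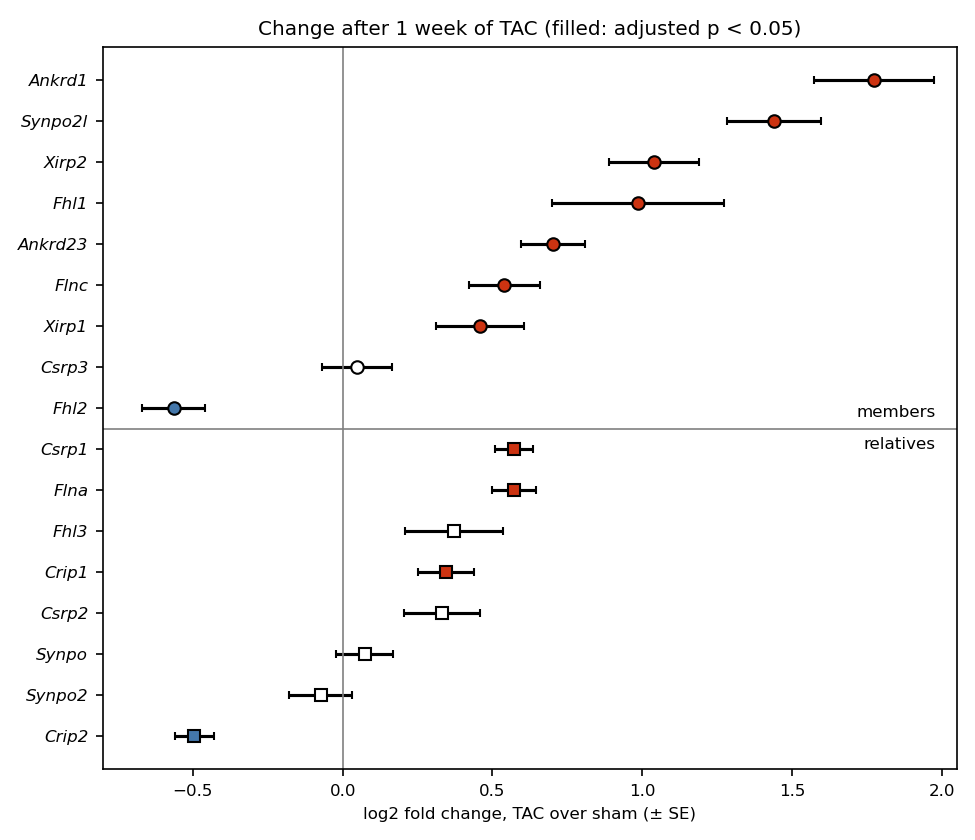
Log2 fold change of TAC over sham (horizontal axis, ± SE) for the 9 tested members (circles) and 8 of the 9 tested relatives from the same protein families (squares), with filled marks for adjusted p under 0.05 by edgeR. Ankrd1 lies farthest to the right at 1.77, and Fhl2 and Crip2 are the filled marks left of 0.

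Ratios between relatives within a library need no scaling factor and show where family members moved unequally. For 5 such ratios the mean log2 ratio was compared between groups by a two-sided exact permutation test over every way to divide the 10 libraries equally, whose smallest possible p is 0.00794, with adjustment over the 5. The genes were chosen with earlier results of these data known, and the p-values do not allow for that choice. Ankrd1 counts were 2.22, 1.22, 1.21, 1.47 and 1.46 times those of Ankrd23 in sham and 3.62, 2.90, 3.29, 2.59 and 3.53 times in TAC. Every TAC ratio was above every sham ratio (mean log2 difference 1.10, exact permutation p = 0.00794, adjusted p = 0.0198). Without the library labelled TAC replicate 1 the difference was 1.05 (exact permutation adjusted p = 0.0397). The size of this ratio depends on how reads shared by Ankrd23 and Gm42417 were assigned, which is not given. The Fhl1 to Fhl2 ratio was 0.326, 0.210, 0.182, 0.152 and 0.232 in sham and 1.08, 0.926, 0.609, 0.299 and 0.340 in TAC. These are ratios of counts and not of levels per length, on which the Fhl1 range of 84.6 to 274 CPM per kb in TAC lay below the Fhl2 range of 378 to 578. In 4 of 5 TAC libraries the ratio was above every sham library (mean log2 difference 1.43, exact permutation p = 0.0159, adjusted p = 0.0265). Leaving out any of sham replicates 2 to 5 gave adjusted p = 0.0661 for it by the exact permutation test. Without the library labelled TAC replicate 1 its mean log2 difference was 1.20 (exact permutation adjusted p = 0.0397).

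Xirp1 to Xirp2 ratios were 1.12, 1.09, 0.840, 0.986 and 0.862 in sham and 0.538, 0.734, 0.718, 0.744 and 0.585 in TAC. All TAC ratios lay below all sham ratios (mean log2 difference -0.565, exact permutation p = 0.00794, adjusted p = 0.0198). Without the library labelled TAC replicate 1 the difference was -0.49 (exact permutation adjusted p = 0.0397). Flnc and the broadly expressed filamin Flna kept ratios of 2.92 to 3.92 in sham and 2.88 to 4.03 in TAC (mean log2 difference -0.0487, exact permutation p = 0.667, adjusted p = 0.802). The ratio of Ankrd1 to Ankrd2 rests on the few Ankrd2 counts. It ranged from 1460 to 7152 in sham and from 843 to 6205 in TAC (mean log2 difference -0.147, exact permutation p = 0.802, adjusted p = 0.802), with TAC replicates 1 and 2 below all sham libraries.

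**Figure D3:**
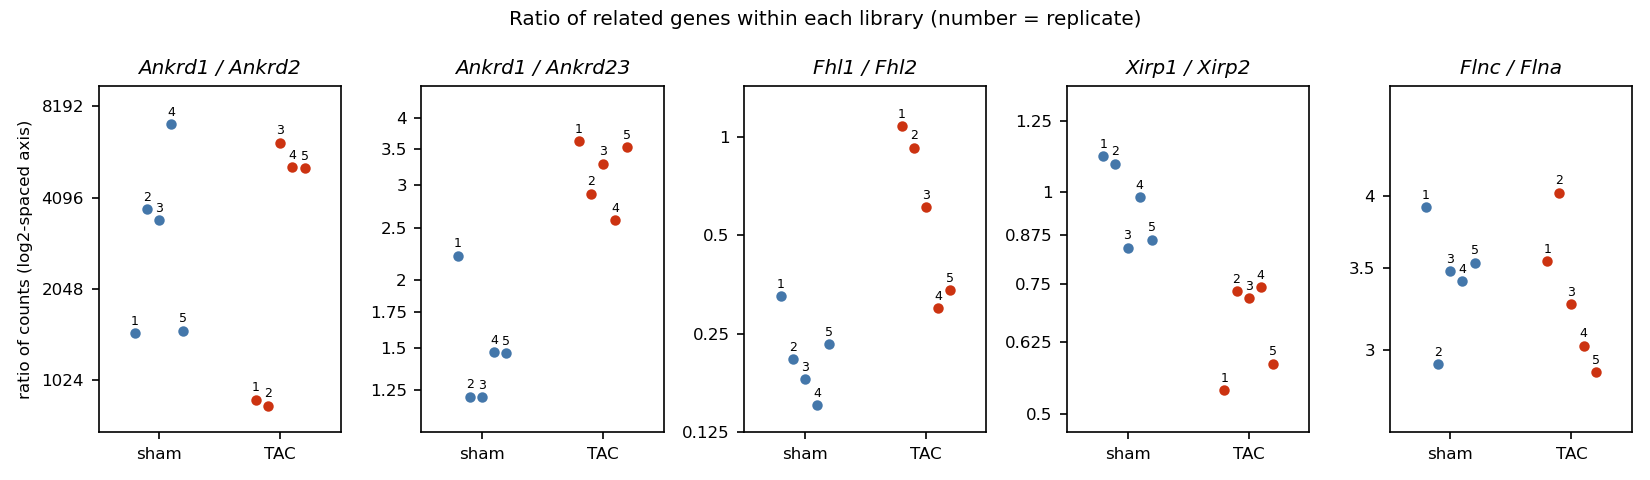
Ratio of read counts of 2 related genes within each library (vertical axes, log2-spaced), with points labelled by replicate number. Sham and TAC points do not overlap for Ankrd1 over Ankrd23 and for Xirp1 over Xirp2, they overlap at 1 TAC library for Fhl1 over Fhl2, and they share a range for Flnc over Flna and for Ankrd1 over Ankrd2, where TAC replicates 1 and 2 lie lowest.

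Levels of different genes were compared per kilobase of merged exons. For Ankrd23 the model Gm42417 covers 78.2% of those bases, and how reads were assigned there is not given, so its place is uncertain. In sham, Fhl2 was the most abundant member at 737 ± 70.1 CPM per kb, above Csrp3 at 451 ± 29.0 and Ankrd1 at 369.6 ± 122, which overlapped each other, and Ankrd23 at 259.6 ± 31.2. Below these came Flnc at 148 ± 13.4, Xirp1 at 116 ± 16.1, Fhl1 at 81.3 ± 16.5, Synpo2l at 70.7 ± 10.8 and Xirp2 at 58.0 ± 4.52 CPM per kb, of which neighbours overlapped in range except Xirp1 and Fhl1. Ankrd2 was last by far, at 0.432 ± 0.376. In TAC, Ankrd1 moved to the top at 1263 ± 294 CPM per kb, above Fhl2 in 5 of 5 libraries and with no overlap. Fhl2 at 499 ± 77.7, Csrp3 at 466 ± 99.7 and Ankrd23 at 422 ± 60.3 then overlapped. Flnc, Synpo2l, Fhl1, Xirp1 and Xirp2 followed with overlapping neighbours, from 215 down to 119, and Ankrd2 was again last.

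**Figure D4:**
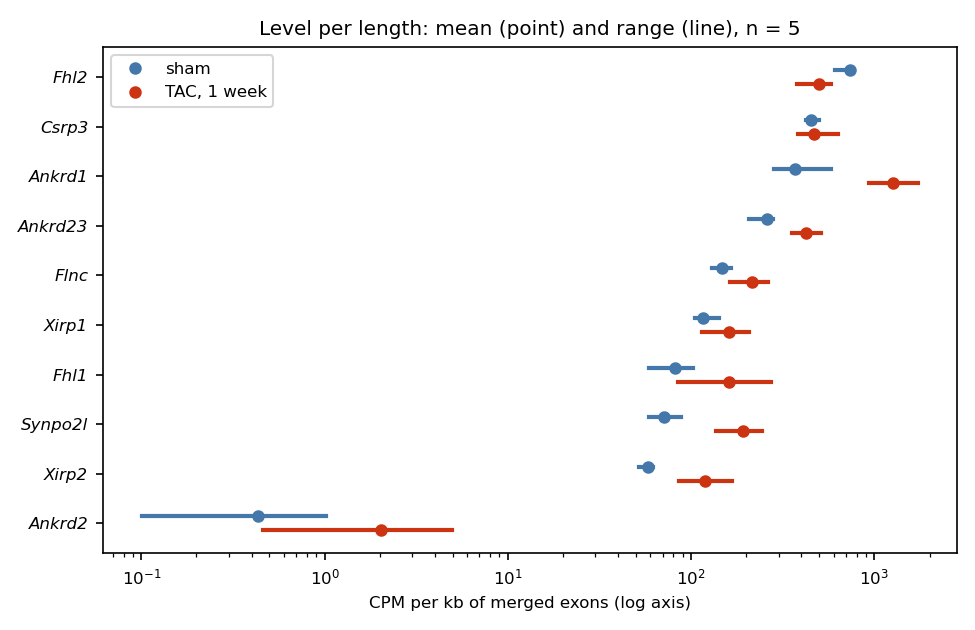
Level of each member in CPM per kilobase of merged exons (horizontal log axis), as the mean (point) and range (line) of 5 sham and 5 TAC libraries, ordered by the sham mean. Fhl2 leads in sham and Ankrd1 in TAC, and Ankrd2 lies far below the others in both groups.

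Libraries within a group differed across many members at once. In sham, replicate 1 had the highest level of 8 of the 10 genes and the lowest of Fhl2, and replicate 4 the lowest level of the other 9. In TAC, replicates 1 and 2 were the 2 highest libraries for 7 genes, and replicates 4 and 5 the 2 lowest for 8 genes. Fhl2 ran the other way in TAC replicate 1 too, which had its lowest value. The replicate with the highest levels in sham and the library labelled TAC replicate 1 thus shared high Ankrd1 and low Fhl2 within their groups. These counts describe 10 genes measured in the same libraries and carry no test.

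The relatives of the members that were not chosen themselves gave a mixed picture. Of 11 listed, 9 were tested, and 4 rose and 1 fell, 4 missed the threshold, and the median log2 change was 0.35, beside 18.8% called higher and 17.0% lower over all tested genes and a median of 0.00 there. Csrp1, the LIM protein of smooth muscle and non-muscle cells, rose from 51.7 ± 2.18 to 76.8 ± 6.03 CPM (log2 change 0.57 ± 0.06, edgeR adjusted p = 5.25e-05). Flna, the broadly expressed filamin, rose by a log2 change of 0.57 ± 0.07 and the small LIM protein Crip1 by 0.35 ± 0.09. Crip2, its relative in heart and endothelium, fell from 1156 ± 61.9 to 819.6 ± 64.3 CPM (log2 change -0.50 ± 0.06). Csrp2 (0.33 ± 0.13, edgeR adjusted p = 0.0594), Fhl3 (0.37 ± 0.16, adjusted p = 0.0911), Synpo (0.07 ± 0.10) and Synpo2 (-0.07 ± 0.11) did not pass. Fhl4 and Fhl5, at means of 0.0925 and 0.0229 CPM in sham, had too few counts to be tested.

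Proteins listed as binding the members or holding them at the Z-disc, I-band or intercalated disc went both ways. Of 22 tested, 4 rose and 6 fell, 12 missed the threshold, and the median log2 change was -0.05. Over all tested genes 18.8% were called higher and 17.0% lower, so among these 22 genes the share of rises is near that background and the share of falls above it. Capn3, a protease held on titin beside the ankyrin repeat proteins, fell by 0.81 on the log2 scale and Ldb3, a Z-disc PDZ and LIM protein, by 0.42. Itgb1, the beta-1 integrin of costameres, and Parva, which links integrins to actin, rose with log2 changes of 0.35 ± 0.05 and 0.29 ± 0.05. With library totals 7 of the 22 rose, and 2 rose without sham replicate 4 while 10 fell without TAC replicate 2. Of 7 chaperones and adaptors that clear strained filamin, among them Bag3 and Hspb8, none was called by edgeR, by DESeq2 or by limma-voom, while 3 had an unadjusted p under 0.05. Bag3 averaged 540.0 ± 23.3 CPM over sham and 564 ± 25.4 CPM over TAC libraries. With library totals 3 of the 7 rose, 1 rose without sham replicate 1 or without TAC replicate 5, and 1 fell without TAC replicate 4.

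Of 16 transcription factors and cofactors known to act on load-responsive muscle promoters, 4 rose and 5 fell, 7 missed the threshold, and the median log2 change was -0.07, where the shares over all tested genes are 18.8% and 17.0%. Factors of the MCAT and CArG elements went both ways. Tead2, of the family that binds MCAT elements, and Mrtfa (listed as Mkl1), a cofactor of serum response factor, rose with log2 changes of 0.70 ± 0.11 and 0.46 ± 0.10. Tead4 rose as well (0.50 ± 0.17, edgeR adjusted p = 0.0327). Tead3 fell, with a log2 change of -0.26 ± 0.08 (edgeR adjusted p = 0.0197), as did Srf, serum response factor itself (-0.21 ± 0.08, adjusted p = 0.0493), while Tead1 (0.06 ± 0.08, adjusted p = 0.582) did not pass. Mean sham levels were 10.6 CPM for Tead2 and 7.45 CPM for Tead4, beside 77.0 CPM for Tead1 and 41.1 CPM for Tead3. Among cofactors, Wwtr1 rose (0.21 ± 0.06, edgeR adjusted p = 0.0147). Yap1 (-0.06 ± 0.05), Mrtfb (listed as Mkl2, -0.04 ± 0.08) and Myocd (-0.24 ± 0.12, edgeR adjusted p = 0.144) did not pass. Tead1, Tead3, Tead4, Srf and these cofactors are named after their values were seen. Ybx1, a known partner of the Ankrd1 protein, Nkx2-5, a cardiac homeobox factor, and Mef2d fell by 0.26, 0.25 and 0.20 on the log2 scale. With library totals 2 of the 16 fell.

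Other LIM proteins of the actin cytoskeleton included both rises and falls. Of 18 tested, 9 rose and 3 fell, 6 missed the threshold, and the median log2 change was 0.13, beside 18.8% called higher and 17.0% called lower over all genes. Lasp1, an actin-binding adaptor, rose with a log2 change of 0.59 ± 0.08, and the focal adhesion proteins Zyx, Tgfb1i1 and Pxn with 0.49 ± 0.09, 0.46 ± 0.07 and 0.36 ± 0.06. Lmo7, a protein of cell junctions, fell by 0.44. Markers of fibroblasts moved in the same direction as these rises: 6 of 7 rose, and their summed level was 758 to 1130.2 CPM in sham and 2349 to 6774 CPM in TAC. The highest sum was that of the library labelled TAC replicate 1, and the next highest was 2816 CPM. Log2 changes were 2.14 for Col1a1, 2.12 for Col3a1, 3.11 for Postn and 0.96 for Lum. They were smaller for Dcn (0.32) and Pdgfra (0.27), and Tcf21 did not pass (0.34, edgeR adjusted p = 0.0563). All 5 macrophage markers rose (120.1 to 136 against 188 to 349 CPM summed). The sum of 349 CPM was that of the library labelled TAC replicate 1, and the next highest was 209 CPM. Of 5 endothelial markers 2 rose (871 to 1064 against 1036 to 1220.2 CPM). None of 5 smooth muscle markers was called by edgeR or had an unadjusted p under 0.05, and their sums overlapped (672 to 964 against 591 to 838 CPM). Of 5 atrial markers 3 were under 1 CPM in every library. Of the 2 tested, Nr2f2 rose (log2 change 0.27, edgeR adjusted p = 0.0428) and Myl4 did not pass (-0.15, adjusted p = 0.675). The atrial sums overlapped (17.9 to 22.8 against 19.8 to 25.8 CPM). The part of these cell types in the rises of the members and their relatives was not tested.

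**Figure D5:**
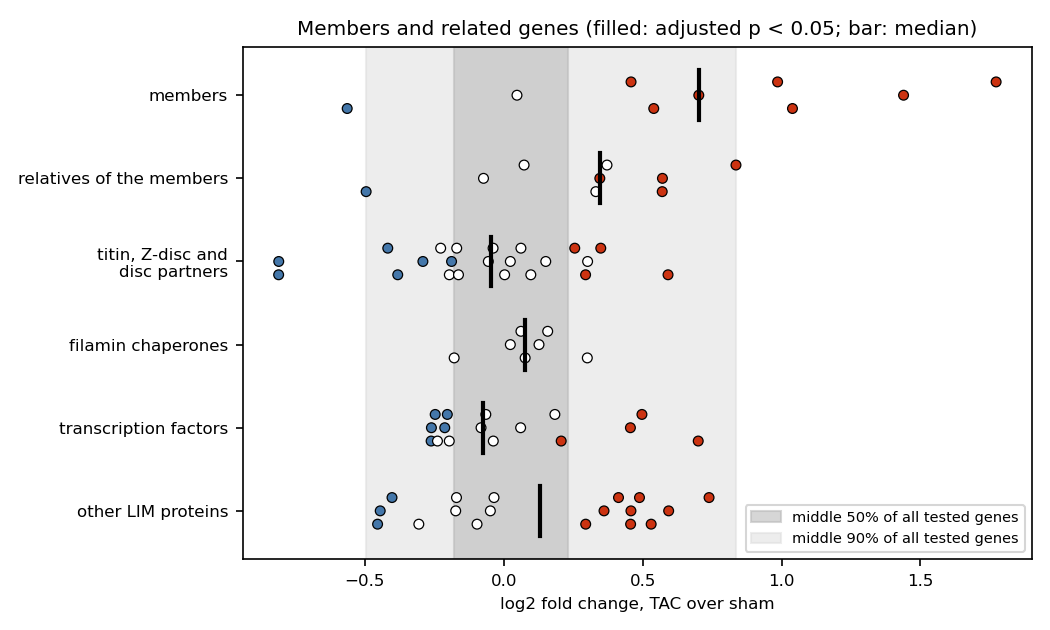
Log2 fold change of TAC over sham (horizontal axis) of every tested gene in the members and in the 5 related lists, with filled points for adjusted p under 0.05 by edgeR, a bar at each median and grey bands for the middle 50% and 90% of all tested genes. The members' median lies at 0.70 and those of the partner, chaperone and transcription factor lists lie between -0.07 and 0.08.

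For an ankyrin, a LIM and a Xin gene, the non-member genes with the most similar library profile were found by the root mean square difference of log2 CPM, each gene taken relative to its sham mean, over the 10 libraries and 8732 genes. Nearest to Ankrd1 were Acta1, skeletal alpha-actin, Svep1, a secreted adhesion protein, and Tgfb2, a growth factor, at differences of 0.289, 0.304 and 0.325 where the median gene was at 1.33. Nearest to Xirp2 were Rtn4, B4galt5 and Fbln2 (0.109, 0.135 and 0.143, median gene 0.779). Nearest to Fhl2 were Sh3kbp1, Idh3a, a subunit of a tricarboxylic acid cycle enzyme, and 1700020C11Rik (0.0802, 0.0830 and 0.0862, median gene 0.447). A difference taken this way includes the shift from sham to TAC. A gene with a like log2 change is therefore near, and the gap to the median gene shows little beyond that.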

How the data were processed

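The authors deposited 1 table of whole-number read counts per Ensembl gene, not normalized, and its 10 library columns were used as deposited. The submitters' processing notes name HTSeq for both groups, Bowtie2 with TopHat2 2.0.10 and mm10 for sham, and Bowtie with TopHat 1.3.0 and both mm9 and mm10 for TAC, while the header of the ID column names mm9. The listed tools thus differ between the groups and cannot be told apart from them. Libraries were single-end without strand, per the labels' protocols. The row of column totals names no gene and was dropped.

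edgeR 4.0.16 (R 4.3.3) was run on all genes with group as the only term, filterByExpr defaults (minimum count 10, minimum total 15), which kept 12001 of 20692 genes, TMM factors and quasi-likelihood F tests at an adjusted p of 0.05. limma 3.58.1 (voom), DESeq2 1.42.0, other scaling, no filter, a replicate block and leaving out each library were alternatives. log2 CPM used a prior count of 2. Over the 20 within-group pairs of libraries the chi-square of counts per gene was 2.57 to 23.5, above sampling noise, so none was taken as a repeat. The series' text counts mice, and no animal identifiers are given, so p-values measure the spread between these libraries. On simulated data of 12001 genes for TAC against sham, 70.0% of 1.5-fold rises, 92.0% of 2-fold rises, 96.0% of 4-fold rises and 86.0% of 2-fold falls were recovered, and 3.91% of calls were false. Gene positions, exon lengths and overlaps are from GENCODE M21 (GRCm38), matched by Ensembl ID. Of sequences of 40 bases in the members' transcripts, 0 to 1.09% occur in another gene's transcripts, except 76.3% for Ankrd23. Every member is named, as are the relatives, up to 5 called genes of each other list and 3 genes per likeness search, except that 2 genes of these lists are counted but not reported by name here. Further transcription factors and cofactors were named after their values were seen. The members and lists were chosen with earlier results of these data known.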

Additional observations from a re-analysis of the deposited data

Results flagged for a closer look

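Each member and each ratio was checked in both groups for a library far from the other 4, in 30 groups of 5 values by Dixon's test (critical value 0.710), where chance flags about 1 group in 20, and 3 were found, all in sham. Ankrd1 in sham replicate 1 stood at 1683 CPM, with the next library at 1024 and the lowest at 818. Fhl2 in the same library stood at 1160.5 CPM, with the others at 1449 to 1474. Ankrd23 in sham replicate 4 stood at 556 CPM, with the others at 699 to 757.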

How the results depend on the processing

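Every member kept its direction and its side of the threshold under all 16 alternatives, with 2 exceptions. These are Xirp1, whose call was lost on leaving out any of 6 libraries (values with that result), and Csrp3, which was not called in any setting. Leaving out 1 library moved the log2 change of Csrp3 between -0.0903, without TAC replicate 2, and 0.112, and the cause was not tested. Ankrd2 had a value only without the filter on low counts, and combining that with leaving out each library was chosen after seeing the data. Its log2 change then ran from 1.40 to 2.72, with adjusted p of 0.0197 to 0.169 by edgeR. Members called higher ran from 6 to 8 and members called lower stayed at 1.

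Scaled by library totals, 1159 genes in all were lower in place of 2040 and 3257 higher in place of 2251, so that 73.8% of calls were higher in place of 52.5%. In that setting 7 titin and Z-disc partners and 3 filamin chaperones rose and 2 transcription factors fell. Leaving out 1 library gave 1 to 2 relatives lower, 2 without TAC replicate 1, 2 to 5 titin and Z-disc partners higher and 5 to 10 lower, and 0 to 1 filamin chaperones higher or lower. The mean log2 ratio difference then ran from 1.20 to 1.66 for Fhl1 over Fhl2, and from -0.12 to 0.0034 for Flnc over Flna, above 0 without TAC replicate 5. For Ankrd1 over Ankrd2 it ran from -0.46 to 0.26, at 0.18, 0.24 and 0.26 without sham replicate 4, TAC replicate 1 and TAC replicate 2. The causes were not tested.

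For same-numbered libraries of the 2 groups, deviations from the group means correlated at -0.09 to 0.22 over genes, above 0.1 in 1 of 5 pairs. That was pair 4, whose libraries were each other's best match in the opposite group. These correlations over all genes do not decide whether the numbers mark pairs. With the replicate number as a block, 2113 genes rose and 1924 fell in all, 1 filamin chaperone was called higher, and every member kept its call. The SE of the log2 change was smaller for every tested member with the block, for Ankrd1 0.085 in place of 0.20. The paired sign-flip test of the ratio differences of 1.10 (Ankrd1 over Ankrd23), 1.43 (Fhl1 over Fhl2) and -0.57 (Xirp1 over Xirp2) gave an exact permutation adjusted p of 0.104 for each, since 5 pairs cannot give a p under 0.0625. Depth limits Ankrd2, Fhl4 and Fhl5, which had too few counts to be tested.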
